A study of Mus musculus with 18 samples.

Results

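The lowest octanoate dose of the series, 1 mM, was compared with phosphate-buffered saline (PBS), the vehicle, over the 20536 of 45281 probes whose deposited detection p-value was under 0.05 on at least 4 of the 18 arrays. The comparison used the 4 arrays labelled 1 mM octanoate and the 5 arrays labelled PBS, which are 9 of the 18 arrays; the remaining arrays received 2 mM (n = 5) or 5 mM octanoate (n = 4). RNA came from AML12, an immortalized mouse hepatocyte line from a commercial cell bank, which limits the model to 1 established line without the other cells of a liver. As background, AML12 was derived from mice carrying a transgene for human TGF alpha, so both groups share it. In both groups 350000 cells were put in each well, left overnight and then kept for 24 h in full DMEM holding 10% FBS, with either octanoate at 1 mM or PBS added. The labels name no other treatment. Whether replicates came from separate cultures is not in the labels. A p-value therefore reflects only how far these samples spread, and that spread may be technical.

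Octanoate is the anion of a saturated medium-chain fatty acid. Such acids enter mitochondria largely without the carnitine shuttle that long-chain acyl groups need, are activated to acyl-CoA in the matrix, and are cut by beta oxidation into acetyl-CoA, from which liver cells can make ketone bodies. Fatty acids can also act as ligands of the nuclear receptor PPAR alpha, which switches on genes of fatty acid oxidation, and acetyl-CoA outside mitochondria is the acetyl donor of histone acetylation, the subject named in the title of the series.

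Each array was 1 of the 6 positions of an Illumina BeadChip, a slide with bead-bound probes. All 5 PBS arrays and 1 mM replicate 1 sat on BeadChip 1, whereas 1 mM replicates 2 to 4 sat on BeadChip 2. A fit with BeadChip as a term therefore sets 1 mM replicate 1 alone against the 5 PBS arrays. Its 1 mM arm is a single array whose spread is taken from the other groups, so it is the less precise fit. Where a named gene loses its call there, the log2 difference in that fit and its adjusted p are given beside the gene, and list counts that change there are given beside the list. Detected probes per array averaged 18100 ± 317 at 1 mM and 17918 ± 391.3 with PBS (SD; two-sided exact permutation p = 0.452). The median deposited intensity was 105.8 ± 5.182 at 1 mM and 110.03 ± 3.969 with PBS (exact permutation p = 0.238), and both p-values were 0.452 after Benjamini-Hochberg adjustment over the 2 measures, where 4 against 5 arrays allow no p below 0.0159. Arrays of 1 group correlated at 0.9885 to 0.9939 across probes at 1 mM and at 0.9924 to 0.9945 with PBS. On the second principal component, with 8.82% of the variance, the 1 mM replicates 1 to 4 stood at 4.696, 8.13, 10.83 and 16.67, so replicates 1 and 4 were the ends of that group. Without these 2 arrays and 2 mM replicate 5, 2084 probes were called for 1 mM against PBS, 1199 higher and 885 lower.

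The label of the cells was set against marker genes. Of 7 hepatocyte markers, Ttr, Serpina1a, Hnf4a and Foxa2 were detected on all 9 arrays, Cebpa and Apoa1 on some, and Alb, which encodes albumin, on none. The summed signal of the 7 ranged from 3012 to 3196 on 1 mM arrays and from 2058 to 2510 on PBS arrays. Most of that difference came from Ttr, which averaged 10.02 at 1 mM and 8.32 with PBS in normalized log2 signal. Hnf4a averaged 10.63 and 10.61, and Serpina1a, Foxa2, Cebpa and Apoa1 were higher at 1 mM by less than Ttr. The bile duct and progenitor markers Krt7, Krt19 and Sox9 were detected on all 9 arrays and Epcam on none, with sums of 5183 to 5778 at 1 mM and 5020 to 5309 with PBS. Of 6 mesenchymal markers 4 were detected on no array, including Col1a1, Col3a1 and Pdgfrb, and the 6 summed to 127.7 to 144.6 at 1 mM and 139 to 157.9 with PBS. Macrophage markers summed to 129.6 to 142.5 at 1 mM and 128 to 141.2 with PBS, with 4 of 6 detected on no array, Ptprc and Adgre1 among them. Endothelial markers summed to 112.7 to 117.5 at 1 mM and 111.4 to 122.3 with PBS, with Pecam1 and 2 more of the 5 on no array. Fewer cells of a type and less RNA per cell cannot be told apart in bulk RNA.

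Between 1 mM octanoate and PBS, 3619 of 20536 tested probes (17.6%) differed at adjusted p under 0.05. The calls come from limma's moderated test with Benjamini-Hochberg adjustment over all tested probes. Of the 3619, 1922 were higher (9.36%) and 1697 lower (8.26%). Most changes were small. Only 76 probes rose at least 2-fold (0.37%) and 6 fell at least 2-fold (0.0292%). Read by gene, through the detected probe with the highest mean signal, 1175 of 10605 genes were higher (11.1%) and 900 lower (8.49%), 2075 in all (19.6%). The arrays of the groups did not overlap for 898 of the higher (8.47% of all genes) and 659 of the lower genes (6.21%). With BeadChip as a term 1295 probes were called (6.31%), 763 higher and 532 lower, and 1015 of them were also called in the same direction without it. By gene that fit called 496 higher (4.68%) and 298 lower (2.81%). Counts of list members below are to be read beside the shares over all genes, each fit beside its own. Quantile normalization holds the distribution of signals equal on all arrays. When arrays were instead scaled to the median of all probes, of which 45.4% were tested, the median log2 fold change over tested probes was −0.115. The split of calls then moved to 498 higher and 2032 lower. Scaling to the median of the tested probes, called median scaling below, gave 1851 higher and 1854 lower, with a median of 0.0168. Directions here are therefore relative to the bulk of probes.

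Gsta4, a glutathione S-transferase that conjugates aldehydes from lipid peroxidation, read 8.20, 8.03, 8.16 and 8.19 on the 1 mM arrays and 6.03, 6.10, 6.25, 6.47 and 6.29 on the PBS arrays, in normalized log2 signal. The groups were more than 1 log2 unit apart at their nearest arrays, and the rise was 1.92 ± 0.09 log2 units (SE; adjusted p = 1.84e-10). Ttr, which carries thyroid hormone in plasma, read 9.99, 9.97, 9.99 and 10.15 at 1 mM and 8.26, 8.25, 8.25, 8.35 and 8.48 with PBS. Its groups did not overlap, and it rose by 1.71 ± 0.10 log2 units (SE; adjusted p = 1.06e-09). Fcgrt, the receptor that saves albumin and immunoglobulin G from breakdown, read 8.17, 8.15, 8.29 and 7.96 at 1 mM and 6.57, 6.55, 6.59, 6.40 and 6.57 with PBS, a gap between the groups and a rise of 1.60 ± 0.09 log2 units (SE; adjusted p = 5.01e-10). Aldh1a1, which oxidizes retinaldehyde, read 9.84, 9.91, 10.03 and 10.10 at 1 mM and 8.52, 8.47, 8.50, 8.58 and 8.40 with PBS. The lowest 1 mM array again lay above the highest PBS array, with a rise of 1.48 ± 0.08 log2 units (SE; adjusted p = 2.25e-10).

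Synpo, an actin-associated protein best known from kidney podocytes and neurons, rose by 1.49 ± 0.08 log2 units (SE; adjusted p = 2.25e-10), with 9.05, 9.05, 9.26 and 9.09 on the 1 mM arrays and 7.61, 7.52, 7.78, 7.69 and 7.54 on the PBS arrays. Flrt1, a membrane protein of cell adhesion, rose by 1.50 ± 0.09 on its brightest probe, while its probes ranged from 0.77 to 1.50. Gstt1, a theta-class glutathione S-transferase, rose by 1.47 ± 0.11, and Cacna1h, a T-type calcium channel, by 1.32 ± 0.12. Serpina1d, an alpha-1-antitrypsin, rose by 1.31 ± 0.13, and Prune2 by 1.32 ± 0.11. All 15 of the largest rises, which ranged from 1.3 to 1.92 log2 units, also passed with BeadChip as a term. They were chosen for groups that do not overlap, so 1 mM replicate 1, the array on which that fit rests, lay above every PBS array by choice.

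**Figure D1:**
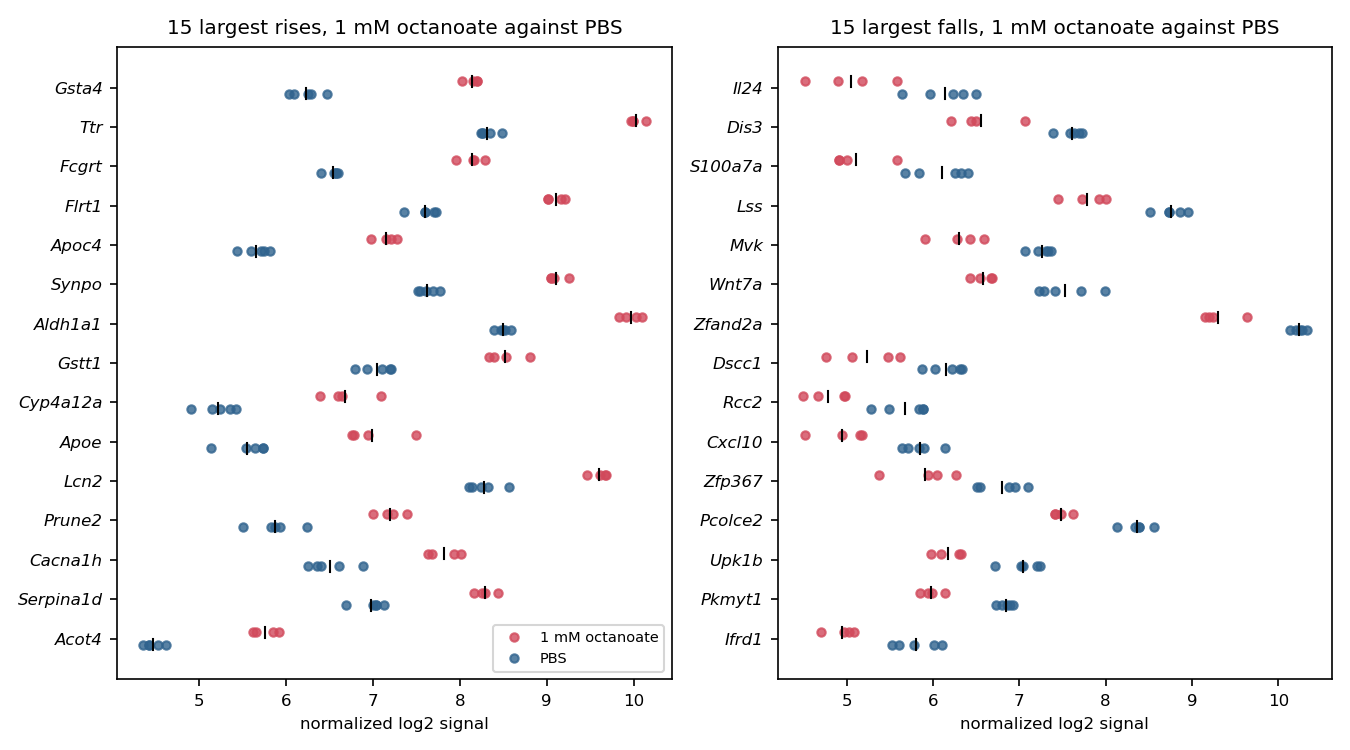
Normalized log2 signal (horizontal axis) on each array for the 15 largest rises (left panel) and the 15 largest falls (right panel), with 1 mM octanoate in red above PBS in blue for each gene, 1 point per array and black ticks at group means. These genes were chosen for non-overlapping groups, and the gaps are wider among the rises, from 1.3 to 1.92 log2 units between means, than among the falls.

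The 15 largest falls ranged from −1.09 to −0.858 log2 units, and 12 of them passed with BeadChip as a term. Il24, a cytokine of the interleukin 10 family, read 5.58, 4.90, 5.18 and 4.52 on the 1 mM arrays, of which 3 detected it, and 6.34, 5.97, 6.23, 6.50 and 5.64 on the PBS arrays. All 1 mM arrays were below all PBS arrays, with a change of −1.09 ± 0.19 log2 units (SE; adjusted p = 0.000533). Dis3, the catalytic ribonuclease of the RNA exosome, read 6.20, 7.07, 6.44 and 6.49 at 1 mM and 7.59, 7.69, 7.73, 7.63 and 7.39 with PBS. It was lowest on 1 mM replicate 1, and its change was −1.05 ± 0.14 log2 units (SE; adjusted p = 3.35e-05). Wnt7a, a secreted Wnt ligand, changed by −0.95 ± 0.15, and S100a7a, a calcium-binding protein of the psoriasin group, by −1.0 ± 0.19. Upk1b, a uroplakin of urothelial membranes, changed by −0.87 ± 0.13 on its brighter probe, while its other probe gave −0.37 without a call. Il24 (−0.56, adjusted p = 0.258), Cxcl10 (−0.66, 0.0757) and Ifrd1 (−0.72, 0.0599) did not pass with BeadChip as a term. Zfp367, a zinc finger transcription factor, fell by 0.89 log2 units on its brightest probe, but its probes ranged from −0.89 to 0.50 and their mean did not pass (adjusted p = 0.262).

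Genes that PPAR alpha is known to switch on were higher where they were called. Of 10 measured members of that list 6 were higher and 0 lower, with a median of 0.45 log2 units. Over all genes 11.1% were higher and 8.49% lower, with a median of −0.00056. Of the 10, 1 was detected on none of the 9 arrays of these groups. Cyp4a12a, a fatty acid omega-hydroxylase, read 7.09, 6.39, 6.65 and 6.60 on the 1 mM arrays and 5.24, 5.14, 5.36, 4.91 and 5.43 on the PBS arrays. Its groups did not overlap, and it rose by 1.47 ± 0.15 log2 units (SE; adjusted p = 2.15e-06). Slc25a20, the mitochondrial carnitine-acylcarnitine translocase, rose by 0.67 ± 0.09 log2 units (SE; adjusted p = 7.2e-05), and the circulating lipase inhibitor Angptl4 by 0.55 ± 0.08 log2 units (SE; adjusted p = 0.000133). Pdk4, a kinase that shuts off pyruvate dehydrogenase and a classical target, read 5.35, 5.37, 5.42 and 5.29 at 1 mM and 4.77, 5.56, 5.20, 5.30 and 4.88 with PBS, overlapping ranges with a difference of 0.21 ± 0.12 log2 units (SE; adjusted p = 0.252). Plin2, a lipid droplet coat protein, rose by 0.36 ± 0.09, a call that was lost with BeadChip as a term (0.39, adjusted p = 0.146). Plin2 (adjusted p = 0.495) and Angptl4 (0.0951) did not pass with all-probe median scaling. The list had 5 genes higher and a median of 0.44 with BeadChip as a term. Ppara itself and Cpt1a had no tested probe.

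Acyl-CoA thioesterases, which free fatty acids from coenzyme A, were higher in 4 of 8 measured genes and lower in 1, and with BeadChip as a term 4 were higher and 0 lower. The shares over all genes were 11.1% higher and 8.49% lower. Acot4 was detected on all 4 arrays at 1 mM and on no PBS array. Its signals were 5.92, 5.85, 5.65 and 5.62 at 1 mM and 4.35, 4.62, 4.42, 4.52 and 4.43 with PBS, so the fold is a bound, at least 1.87-fold higher (adjusted p = 1.82e-07). Acot1, a cytosolic thioesterase, read 12.40, 12.61, 12.62 and 12.52 at 1 mM and 11.48, 11.55, 11.48, 11.45 and 11.43 with PBS, with no overlap and a rise of 1.06 ± 0.07 log2 units (SE; adjusted p = 4.11e-09). Acot2, its mitochondrial relative, rose by 0.79 ± 0.12 on its brightest probe, while the mean of its probes did not pass (adjusted p = 0.255). Acot7, a thioesterase rich in brain, was the member that fell, by 0.22 log2 units.

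Of 17 measured genes of mitochondrial fatty acid oxidation 6 were higher and 0 lower (median 0.21), and of 13 peroxisomal genes 4 were higher, or 3 with BeadChip as a term, and 0 lower (median 0.25). Acadm, the medium-chain acyl-CoA dehydrogenase that takes the first step on octanoyl-CoA, read 11.11, 10.96, 11.05 and 11.13 on the 1 mM arrays and 10.63, 10.63, 10.76, 10.56 and 10.68 on the PBS arrays. The groups were separate but close, with a rise of 0.41 ± 0.08 log2 units (SE; adjusted p = 0.000996). Acaa2, the mitochondrial thiolase, rose by 0.56 ± 0.09 log2 units (SE; adjusted p = 0.000231). Among peroxisomal enzymes the thiolase Acaa1b rose by 0.89 ± 0.08 log2 units (SE; adjusted p = 4.54e-07) and the branched-chain acyl-CoA oxidase Acox2 by 0.82 ± 0.11 log2 units (SE; adjusted p = 3.39e-05). With BeadChip as a term the mitochondrial list had 4 calls, all higher, and a median of 0.11. With all-probe median scaling Acadm (adjusted p = 0.284) and Acaa2 (0.0581) did not pass.

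Ketone body genes did not move as a block. Of 6 measured, 2 were higher and 1 lower, beside 11.1% higher and 8.49% lower over all genes. Bdh2, a cytosolic dehydrogenase first described for 3-hydroxybutyrate, read 8.16, 8.13, 8.26 and 8.28 on the 1 mM arrays and 7.08, 6.90, 6.97, 6.89 and 6.75 on the PBS arrays. It rose without overlap by 1.29 ± 0.08 log2 units (SE; adjusted p = 1.66e-09). Aacs, which turns acetoacetate into acetoacetyl-CoA for lipid synthesis in the cytosol, read 9.65, 9.53, 9.34 and 9.45 at 1 mM and 10.18, 10.27, 10.17, 9.96 and 10.25 with PBS. All its 1 mM values were below those of PBS, a change of −0.67 ± 0.09 log2 units (SE; adjusted p = 2.76e-05). The citrate cycle with pyruvate dehydrogenase (25 measured, 1 higher, 0 lower; 0 higher and 1 lower with BeadChip) and the subunits of oxidative phosphorylation (32 measured, 2 higher, 0 lower; both calls lost with BeadChip) stayed near 0 in the median, at −0.02 and −0.000318. Glycolysis had 1 gene higher and 1 lower of 15, calls that were lost with BeadChip, with a median of 0.05 that turned to −0.08 with BeadChip as a term, to −0.01 with median scaling and to −0.14 with all-probe median scaling.

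Lipid storage and synthesis genes were mostly uncalled. Over all genes 11.1% were higher and 8.49% lower. In the list of triglyceride and droplet genes 3 of 18 were higher, or 1 with BeadChip as a term, and 0 lower. Cideb, which helps lipid join very-low-density lipoprotein and droplets fuse, read 9.23, 9.26, 9.0 and 9.50 on the 1 mM arrays and 7.94, 7.68, 7.87, 8.15 and 8.15 on the PBS arrays. Its groups were widely apart, with a rise of 1.29 ± 0.11 log2 units (SE; adjusted p = 1.45e-07). In fatty acid synthesis 2 of 13 were higher and 0 lower, and both calls were lost with BeadChip as a term. Fasn, fatty acid synthase, was detected on 3 of the 4 arrays at 1 mM and on no PBS array, at least 1.1-fold higher (adjusted p = 0.0171), a call lost with BeadChip as a term (0.76, 0.0542), without 1 mM replicate 1 (0.0607), without 1 mM replicate 3 (0.0511) and in the authors' deposited values (0.0516). Acly, the citrate lyase that makes cytosolic acetyl-CoA, was 11.81 ± 0.14 at 1 mM and 11.88 ± 0.06 with PBS (SD), with a difference of −0.07 ± 0.09 log2 units (SE; adjusted p = 0.669). Acss2, which makes acetyl-CoA from acetate, read 6.90, 6.23, 6.48 and 6.70 at 1 mM and 6.53, 6.57, 6.05, 6.43 and 6.69 with PBS. The 1 mM values spread widely around those of PBS, with a difference of 0.12 ± 0.13 log2 units (SE; adjusted p = 0.576). The acetyl-CoA supply list, which holds Acly and Acss2, had 2 of 7 genes lower and 0 higher, the carnitine shuttle list 1 of 6 higher and 1 lower, and acyl-CoA synthetases 1 of 9 higher and 1 lower. The 2 lower supply genes were Aacs, counted above among ketone body genes, and Crat, which is also the lower carnitine gene. With BeadChip as a term 1 acetyl-CoA supply gene was lower and 1 carnitine gene higher, and the other calls of these lists were lost.

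Enzymes of cholesterol synthesis were lower at 1 mM along most of the pathway. Of 14 measured genes 10 were lower and 0 higher (background 8.49% lower), with a median of −0.55 log2 units. Mvk, which phosphorylates mevalonate, read 6.43, 6.59, 5.90 and 6.27 on the 1 mM arrays and 7.21, 7.34, 7.06, 7.37 and 7.31 on the PBS arrays. All 1 mM arrays lay below all PBS arrays, a change of −0.96 ± 0.13 log2 units (SE; adjusted p = 3.9e-05). Lss, the cyclase that forms lanosterol, read 8.01, 7.72, 7.93 and 7.45 at 1 mM and 8.51, 8.86, 8.73, 8.73 and 8.95 with PBS, again without overlap, a change of −0.98 ± 0.12 log2 units (SE; adjusted p = 1.83e-05). A dimmer probe of Lss gave 0.06, so the probes of that gene disagreed. Cyp51, which removes the 14-alpha-methyl group of lanosterol, changed by −0.83 ± 0.10 log2 units (SE; adjusted p = 8.77e-06). Between Mvk and Lss, Pmvk (−0.50), Mvd (−0.64), Fdps (−0.54) and Sqle (−0.56), the squalene epoxidase, were lower, and after Cyp51 Msmo1 (−0.44), Nsdhl (−0.62) and Hsd17b7 (−0.58). Ebp (0.19), Sc5d (−0.08), Dhcr7 (−0.22) and Tm7sf2 (−0.25) did not pass. Pmvk did not pass in a fit of these 2 groups alone (adjusted p = 0.053).

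The fit with BeadChip called 8 of the 14 cholesterol genes lower, with a median of −0.56. Msmo1 (−0.30, adjusted p = 0.22) and Mvd (−0.62, 0.149) lost their calls there. The regulators of the pathway did not share 1 direction, with 2 of 8 measured genes higher and 2 lower, or 1 higher and 1 lower with BeadChip as a term. Insig1, which holds the SREBP complex in the endoplasmic reticulum and is itself an SREBP target, read 7.85, 7.56, 7.56 and 8.02 on the 1 mM arrays and 8.45, 8.52, 8.03, 8.57 and 8.50 on the PBS arrays. It was lower without overlap, a change of −0.67 ± 0.13 log2 units (SE; adjusted p = 0.00145), and its other probes also were lower, to −1.10. Its call did not hold with BeadChip as a term (−0.57, adjusted p = 0.105). Insig2, the related retention protein, was higher by 0.45 ± 0.07 log2 units (SE; adjusted p = 0.000287), and not called with all-probe median scaling (adjusted p = 0.257). The dimmer of the 2 Insig2 probes gave 0.01, so the probes of that gene disagreed. Srebf2, the gene of the SREBP that drives sterol enzymes, was 8.99 ± 0.15 at 1 mM and 9.12 ± 0.13 with PBS (SD), a difference of −0.14 ± 0.10 log2 units (SE; adjusted p = 0.372).

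**Figure D2:**
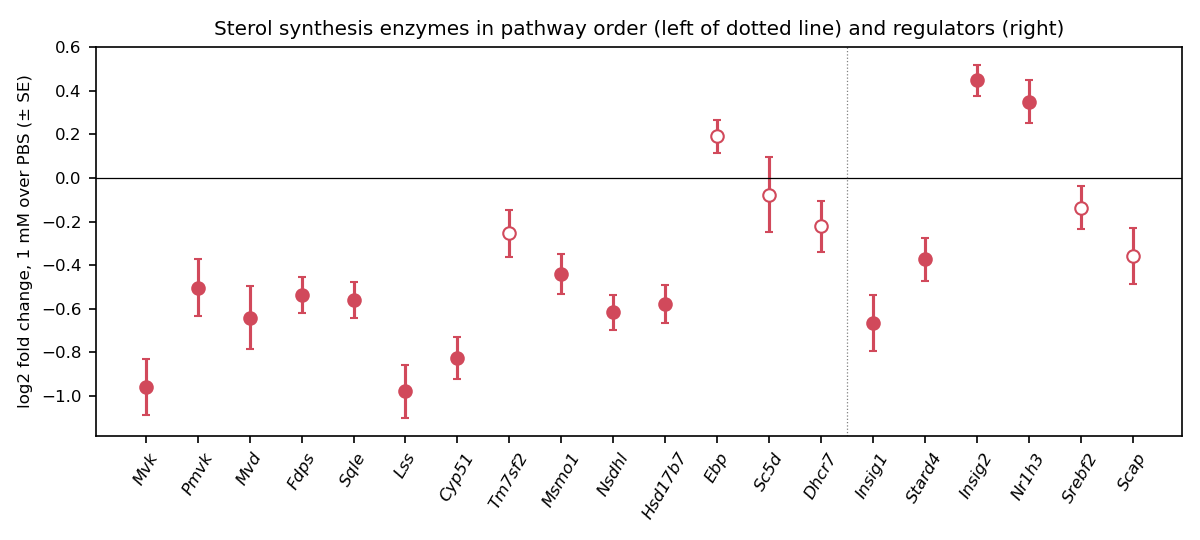
Log2 fold change at 1 mM octanoate over PBS with its standard error (vertical axis) for 14 sterol synthesis enzymes in the order of the pathway and, right of the dotted line, 6 regulators; filled points passed adjusted p under 0.05, open points did not. The 10 called enzymes all lie below 0, from Mvk to Hsd17b7, while the called regulators lie on both sides.

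The promoters of sterol enzymes are shown because these members fell together. SREBP is known to act beside NF-Y, a factor that binds the letters CCAAT. Sequences are from RefSeq, build GRCm38.p6, and a promoter was available for 8639 of the 10605 tested genes. In the 250 bases before the transcription start, CCAAT on either strand was found in all 8 promoters available among the cholesterol genes called lower, in 11 of 12 measured ones (91.7%) and in 36.9% of all tested genes. The same letters were found in 78.3% of 23 mitotic and 65.5% of 29 replication promoters. The sterol element letters TCACNCCAC, on either strand, were found in 0 of the 12 and in 1.01% of all. Windows of 60 bases are given 5′ to 3′ on the strand of the gene, with capitals for CCAAT or its reverse complement.
Cyp51 chr5:4104698-4104757 (- strand): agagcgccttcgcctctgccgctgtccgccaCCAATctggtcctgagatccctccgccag
Lss chr10:76531515-76531574 (+ strand): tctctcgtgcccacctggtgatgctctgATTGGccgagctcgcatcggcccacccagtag
Nsdhl chrX:72918461-72918520 (+ strand): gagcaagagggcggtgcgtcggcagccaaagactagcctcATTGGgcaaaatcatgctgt
Mvk chr5:114444209-114444268 (+ strand): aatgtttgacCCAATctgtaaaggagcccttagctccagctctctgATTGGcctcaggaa
Hsd17b7 chr1:169969206-169969265 (- strand): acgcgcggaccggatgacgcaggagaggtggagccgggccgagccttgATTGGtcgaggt
Msmo1 chr8:64733602-64733661 (- strand): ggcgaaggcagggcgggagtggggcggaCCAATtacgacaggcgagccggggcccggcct
In these windows the nearest match lay between 12 bases (Hsd17b7) and 62 bases (Lss) before the start, and Mvk, among the largest falls of all genes, held 5 matches in its 250 bases. A match in the letters is a description and not a binding site.

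Genes that mark the mature liver were higher where they were called. Of all tested genes 11.1% were higher and 8.49% lower. Of 14 measured hepatocyte secreted proteins and enzymes 9 were higher and 0 lower, with a median of 0.56 log2 units and, with BeadChip as a term, 6 higher and a median of 0.44. Hpx, the plasma carrier of haem, read 12.75, 12.64, 12.50 and 12.74 on the 1 mM arrays and 11.33, 11.22, 11.48, 11.50 and 11.37 on the PBS arrays. No arrays overlapped, and it rose by 1.28 ± 0.09 log2 units (SE; adjusted p = 1.54e-08). Serpina1b (1.26 ± 0.14), Ambp (0.81 ± 0.08), the precursor of a plasma protease inhibitor, and Trf (0.67 ± 0.08), transferrin, also rose. Afp, the fetal counterpart of albumin, was detected on no 1 mM array and on 1 PBS array. Of 13 hepatocyte transcription factors 2 were higher, or 1 with BeadChip as a term, and 0 lower, and Hnf4a, a central one, read 10.63 ± 0.07 at 1 mM and 10.61 ± 0.15 with PBS (SD). Krt7, a bile duct keratin, was 6.85 ± 0.20 at 1 mM and 7.37 ± 0.08 with PBS, a change of −0.51 ± 0.12 log2 units (SE; adjusted p = 0.00581) that did not pass with BeadChip as a term (−0.24, adjusted p = 0.487), while Krt19 differed by 0.03, also without a call.

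Apolipoproteins, which carry lipid in plasma, had 5 of 8 measured genes higher and 0 lower. Apoe, a lipid-binding protein of lipoprotein remnants, read 7.50, 6.94, 6.78 and 6.76 on the 1 mM arrays and 5.64, 5.54, 5.73, 5.13 and 5.74 on the PBS arrays. Its highest value was on 1 mM replicate 1, and it rose by 1.44 ± 0.16 log2 units (SE; adjusted p = 3.71e-06), or by 1.94 with BeadChip as a term. Apoc4, which lies in the same gene cluster, read 7.20, 7.15, 6.98 and 7.27 at 1 mM and 5.43, 5.59, 5.81, 5.75 and 5.71 with PBS, a rise without overlap of 1.49 ± 0.09 log2 units (SE; adjusted p = 3.16e-09). Apoc2, the activator of lipoprotein lipase, rose by 1.00 ± 0.09 log2 units (SE; adjusted p = 5.8e-07) on its brighter probe. Its other probe gave 0.37, without a call. The list median was 0.40 and became 0.75 with BeadChip as a term.

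Conjugating enzymes made up the list with the highest median in the fit without BeadChip. With BeadChip as a term the apolipoprotein list had a higher median, 0.75. Of 20 measured glutathione S-transferases 14 were higher and 0 lower (background 11.1% higher), with a median of 0.67 log2 units. Beside Gsta4 and Gstt1, the microsomal Mgst1 (1.01 ± 0.09) and Mgst2 (0.99 ± 0.09), the theta-class Gstt3 (0.91 ± 0.08), the mu-class Gstm2 (0.84 ± 0.09) and the pi-class Gstp1 (0.73 ± 0.08) rose. Gsta2 (0.01), Mgst3 (−0.11) and Gsto1 (−0.15) did not pass. The fit with BeadChip called 11 of them higher, with a median of 0.57. These genes, like the Serpina1 and Ugt1a genes, have close paralogs; probe sequences were not used here, and whether a probe also reads a copy was not examined.

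Cytochrome P450 and conjugating genes had 11 of 19 measured members higher and 0 lower, with a median of 0.47, and 8 were higher with BeadChip as a term. Of the 19, 4 were detected on none of the 9 arrays of these groups. Ugt1a10, a glucuronosyltransferase, read 10.48, 10.51, 10.46 and 10.46 on the 1 mM arrays and 9.21, 9.25, 9.35, 9.15 and 9.24 on the PBS arrays. It rose without overlap by 1.24 ± 0.07 log2 units (SE; adjusted p = 1.66e-09) on its brightest probe, with 0.19 on the weakest of its probes. Ephx1, the microsomal epoxide hydrolase, read 11.43, 11.28, 11.32 and 11.32 at 1 mM and 10.33, 10.34, 10.34, 10.36 and 10.24 with PBS, a rise of 1.02 ± 0.07 log2 units (SE; adjusted p = 6.51e-09). Ugt1a6a (1.18 ± 0.12), Cyp2d22 (1.04 ± 0.09) and the sterol 27-hydroxylase Cyp27a1 (0.95 ± 0.11) also rose. Aldehyde dehydrogenases, which clear aldehydes to acids, had 6 of 13 higher and 1 lower, or 3 higher and 1 lower with BeadChip as a term, and the fall was in Aldh16a1 (−0.45). Of 21 NRF2 targets, the antioxidant genes, 5 were higher and 1 lower, and 1 was detected on none of the 9 arrays. Their median of 0.06 turned to −0.04 with all-probe median scaling. The fit with BeadChip called 1 of them higher and 0 lower. Among them the efflux pump Abcc3 rose by 0.63 ± 0.08 log2 units (SE; adjusted p = 2.13e-05), while Nqo1, a standard reporter of NRF2, differed by 0.02 without a call.

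**Figure D3:**
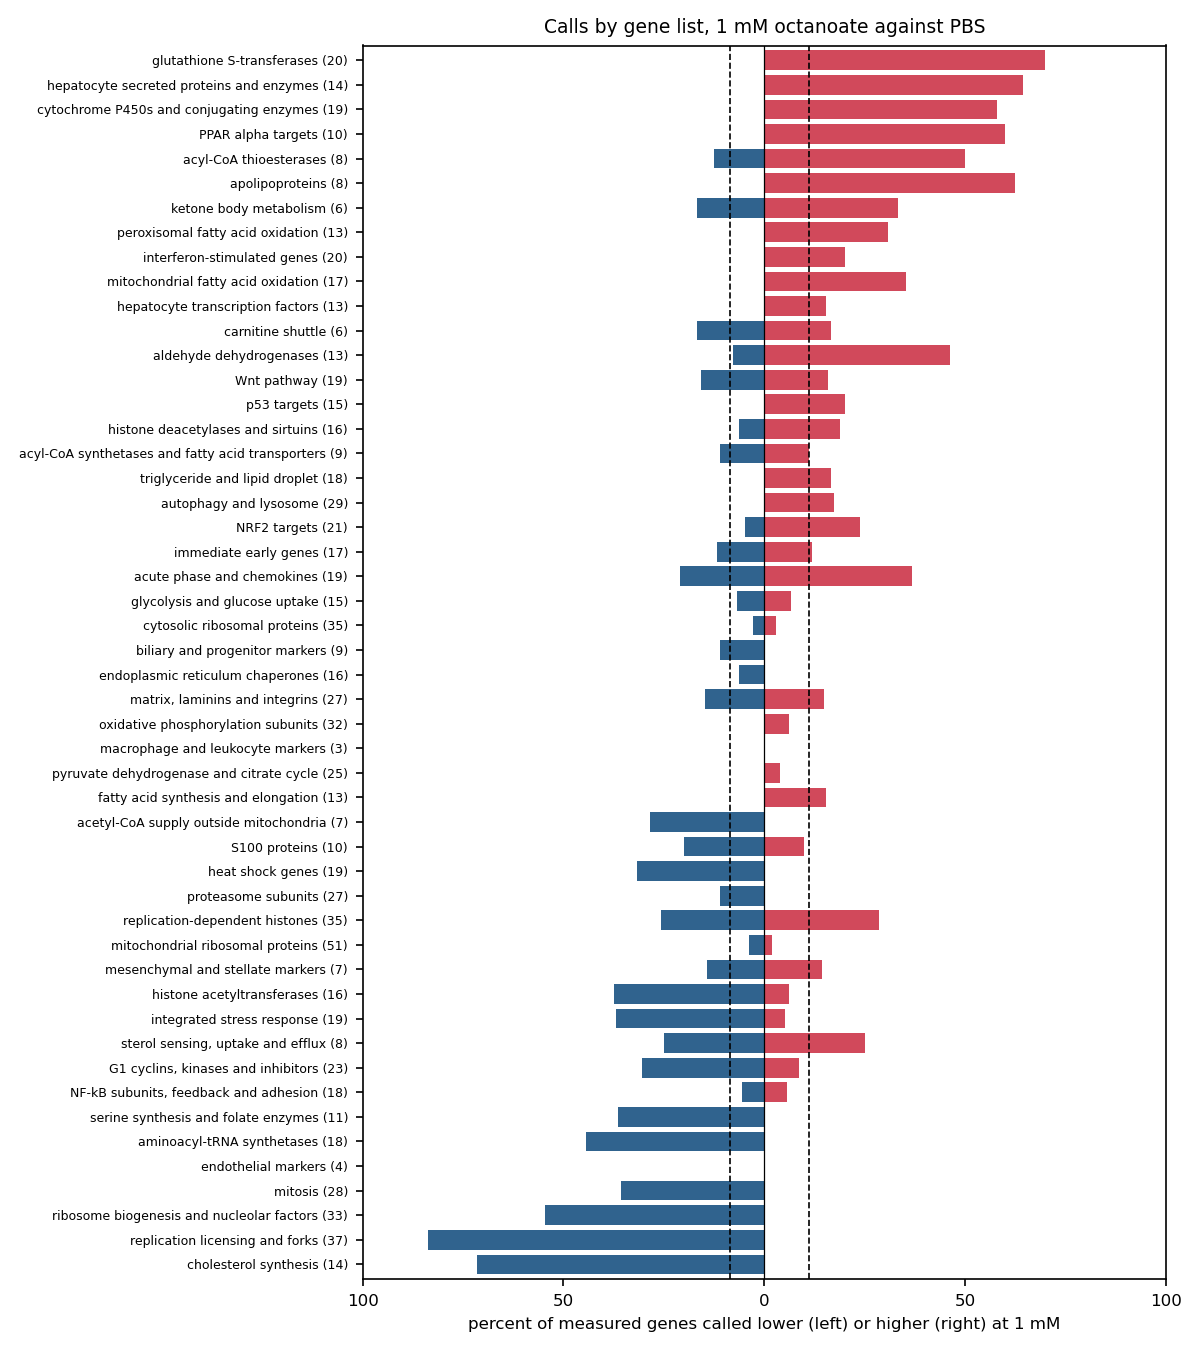
Percent of measured genes called higher (red, right) or lower (blue, left) at 1 mM octanoate against PBS in each of 50 gene lists, ordered by median log2 fold change, with the number of measured genes in parentheses; dashed lines mark all tested genes, 11.1% higher and 8.49% lower. Glutathione S-transferases stand at the top of the order, and cholesterol synthesis and replication genes at the bottom.

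Most genes of DNA replication were lower, by small amounts. Of 37 measured genes of licensing and forks 31 were lower and 0 higher (background 8.49% lower), with a median of −0.48 log2 units. Mcm10, which helps start the replication fork, read 9.38, 9.64, 9.68 and 9.55 on the 1 mM arrays and 10.12, 10.04, 10.11, 10.23 and 10.15 on the PBS arrays. The groups did not overlap, and the change was −0.57 ± 0.07 log2 units (SE; adjusted p = 2.81e-05). Pold1, the catalytic subunit of DNA polymerase delta, read 10.41, 10.33, 10.47 and 10.57 at 1 mM and 10.97, 10.97, 11.06, 11.09 and 10.91 with PBS, also apart, a change of −0.55 ± 0.08 log2 units (SE; adjusted p = 8.1e-05). Dscc1, part of a clamp loader for sister chromatid cohesion, was detected on 3 of 4 arrays at 1 mM and on all PBS arrays, a change of −0.92 ± 0.15 log2 units (SE; adjusted p = 0.000241). Orc1 (−0.75), Rrm2 (−0.74), the small subunit of ribonucleotide reductase, Pcna (−0.68), the sliding clamp, Cdc6 (−0.68), Mcm3 (−0.53) and Mcm5 (−0.52) were lower as well. With BeadChip as a term 16 of the 37 passed, all lower, with a median of −0.55, and Orc1 (−0.59, adjusted p = 0.0928), Pcna (−0.62, 0.121) and Mcm3 (−0.60, 0.0815) did not.

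Among mitotic genes 10 of 28 measured were lower and 0 higher, with a median of −0.25, and with BeadChip as a term 3 were called lower. Nuf2, a kinetochore protein, changed by −0.79 ± 0.16 log2 units (SE; adjusted p = 0.0015), Cdca8, the borealin subunit of the chromosomal passenger complex, by −0.40 ± 0.08 log2 units (SE; adjusted p = 0.00213), and Bub1b, of the spindle checkpoint, by −0.43 ± 0.10. Cdk1 (−0.05), Birc5 (0.09) and Cenpf (−0.01) did not pass. The shares over all genes were 11.1% higher and 8.49% lower. Among G1 regulators 7 of 23 were lower and 2 higher, or 2 lower and 1 higher with BeadChip as a term. Ccne2, cyclin E2, changed by −0.78 ± 0.12 log2 units (SE; adjusted p = 0.0002), though not with BeadChip as a term (−0.67, adjusted p = 0.0637), and Ccnd2, cyclin D2, rose by 0.58 ± 0.10 log2 units (SE; adjusted p = 0.000334), though not with all-probe median scaling (0.0936). Cdkn1a, the p21 inhibitor, was 11.41 ± 0.17 at 1 mM and 11.45 ± 0.10 with PBS (SD), a difference of −0.04 ± 0.08 log2 units (SE; adjusted p = 0.766). The p53 targets had 3 of 15 higher (20%, beside 11.1% over all genes) and 0 lower. Their median was 0.16, or −0.0015 with all-probe median scaling. Trp53inp1 rose by 0.56 ± 0.09 log2 units (SE; adjusted p = 0.000181) and Fas, a death receptor, by 0.51 ± 0.09 log2 units (SE; adjusted p = 0.000701), neither of which passed with all-probe median scaling (adjusted p = 0.0911 and 0.122). A dimmer probe of Fas gave −0.11, and the dimmer probe of Trp53inp1 gave 0.18 without a call. Mki67 had no tested probe.

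Many mitotic promoters are known to carry a cell cycle homology region, a letter pattern bound by the DREAM and MYB complexes, and 2 of the lower members are shown for it. The letters TTTGAA or TTCGAA, on either strand of the 250 bases before the start, were found in 9 of 23 mitotic promoters (39.1%), in 3 of the 9 called lower (33.3%) and in 12.2% of all tested genes. The windows are 60 bases on the strand of the gene, GRCm38.p6, with the pattern in capitals.
Bub1b chr2:118597996-118598055 (+ strand): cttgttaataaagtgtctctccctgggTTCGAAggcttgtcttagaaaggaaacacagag
Cdc20 chr4:118437344-118437403 (- strand): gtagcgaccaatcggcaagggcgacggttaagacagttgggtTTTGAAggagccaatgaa
Of this pair Bub1b differed by −0.43 and Cdc20, which activates the anaphase-promoting complex, by −0.34. The match lay 188 bases before the start in Bub1b and 18 in Cdc20. Espl1, the remaining lower member with a match, at 27 bases, is not shown. The call of Cdc20 was lost with BeadChip as a term (−0.22, adjusted p = 0.428) and without 1 mM replicate 4 (difference −0.24, adjusted p = 0.0782).

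Genes that build ribosomes fell where they were called, beside 8.49% lower and 11.1% higher over all genes. Of 33 measured genes of ribosome biogenesis 18 were lower and 0 higher, with a median of −0.31; with BeadChip as a term 12 were lower. Tcof1, the treacle protein that promotes transcription of ribosomal DNA, read 9.58, 9.72, 9.58 and 9.55 on the 1 mM arrays and 10.42, 10.44, 10.42, 10.50 and 10.44 on the PBS arrays. Its groups did not overlap, and the change was −0.84 ± 0.10 log2 units (SE; adjusted p = 1.38e-05). Rrp9, which binds the U3 small nucleolar RNA, read 7.37, 7.55, 7.42 and 7.48 at 1 mM and 8.32, 8.11, 8.25, 8.34 and 7.91 with PBS, a change without overlap of −0.73 ± 0.09 log2 units (SE; adjusted p = 1.03e-05). Mybbp1a (−0.64) and Rrs1 (−0.61) were lower too, Rrs1 not with BeadChip as a term (−0.38, adjusted p = 0.208). Of 35 cytosolic ribosomal protein genes 1 was higher and 1 lower, with a median of 0.03 that turned to −0.0026 with median scaling and −0.13 with all-probe median scaling, and 1 was higher with BeadChip as a term. The higher gene was Rpl22, which rose by 0.71 ± 0.09 log2 units (SE; adjusted p = 2.76e-05). Mitochondrial ribosomal proteins had 1 of 51 higher and 2 lower, calls lost with BeadChip as a term.

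Aminoacyl-tRNA synthetases, which charge tRNA, had 8 of 18 genes lower and 0 higher, with a median of −0.23, and 2 lower with BeadChip as a term. Vars changed by −0.49 ± 0.07 log2 units (SE; adjusted p = 0.000151) and Mars1 by −0.52 ± 0.08 log2 units (SE; adjusted p = 0.000249). Beside these lists stand 8.49% lower and 11.1% higher over all genes. In the integrated stress response, the ATF4 programme of amino acid shortage and unfolded protein, 7 of 19 were lower and 1 higher, or 2 lower and 0 higher with BeadChip as a term. Asns, asparagine synthetase, read 12.08, 12.15, 12.11 and 12.06 on the 1 mM arrays and 12.55, 12.64, 12.51, 12.55 and 12.48 on the PBS arrays. It was lower on every 1 mM array, a change of −0.45 ± 0.07 log2 units (SE; adjusted p = 0.000143). Trib3, a pseudokinase of that programme, read 7.94, 7.98, 8.43 and 8.07 at 1 mM and 8.69, 8.56, 8.62, 8.66 and 8.62 with PBS, nearest to PBS on 1 mM replicate 3, and changed by −0.53 ± 0.11 log2 units (SE; adjusted p = 0.00319). Atf4 itself (−0.45) and Chac1 (−0.50), which degrades glutathione, were lower, without a call with BeadChip as a term (−0.35, adjusted p = 0.184, and −0.61, 0.0527). Stc2, a secreted glycoprotein, was the member that rose, by 0.50 ± 0.08 log2 units (SE; adjusted p = 0.000332), a call lost with BeadChip as a term (0.39, adjusted p = 0.0997) and with all-probe median scaling (0.0982). Of 11 serine and folate genes 4 were lower, or 2 with BeadChip as a term, and 0 higher. Among them Shmt2 changed by −0.59 ± 0.11 log2 units (SE; adjusted p = 0.00108) and Mthfd2 by −0.52 ± 0.09 log2 units (SE; adjusted p = 0.000337), both enzymes of mitochondrial folate metabolism.

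Heat shock genes had 6 of 19 lower and 0 higher, beside 8.49% lower over all genes, and the fit with BeadChip called 3 lower and 1 higher. Zfand2a, a zinc finger protein made on heat or arsenite stress, read 9.19, 9.16, 9.63 and 9.24 on the 1 mM arrays and 10.28, 10.13, 10.21, 10.33 and 10.25 on the PBS arrays. All 1 mM arrays were lower, a change of −0.93 ± 0.09 log2 units (SE; adjusted p = 1.32e-06). Hspa4, a nucleotide exchange factor of the HSP70 family, changed by −0.69 ± 0.14 log2 units (SE; adjusted p = 0.00212), which did not pass with BeadChip as a term (−0.68, adjusted p = 0.101). Of 16 chaperones of the endoplasmic reticulum 1 was lower and 0 higher, and of 27 proteasome subunits 3 were lower and 0 higher, and these calls were lost with BeadChip as a term.

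Histone genes and the enzymes of histone acetylation changed in part. Of 35 measured replication-dependent histone genes 10 were higher and 9 lower, and they divided by type. Among H2A genes 8 of 10 were lower and 0 higher (median −0.35), among H2B genes 8 of 9 were higher and 0 lower (median 0.30), and among H4 genes 1 of 8 was higher and 1 lower (median 0.06). H2ac21, an H2A gene, read 10.22, 9.79, 10.12 and 10.05 on the 1 mM arrays and 10.93, 10.73, 10.83, 10.93 and 10.58 on the PBS arrays. It was lower without overlap, a change of −0.75 ± 0.11 log2 units (SE; adjusted p = 0.000114). H1f2, a linker histone, read 11.49, 11.66, 11.59 and 11.53 at 1 mM and 11.12, 11.07, 11.22, 11.07 and 11.06 with PBS, a rise of 0.46 ± 0.07 log2 units (SE; adjusted p = 0.000144). H2bc15 differed by 0.45 and H2ac11 by −0.57. With BeadChip as a term the 35 genes had 4 calls, all higher, and H2ac21 (−0.58, adjusted p = 0.0682), H2ac11 (−0.37, 0.239) and H2bc15 (0.30, 0.292) did not pass. With all-probe median scaling H1f2 (adjusted p = 0.218) and H2bc15 (0.2) did not. Histone genes are near-identical within a type, and their probes may read several copies; the part of that in the split was not tested.

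Of 16 histone acetyltransferase genes and partners 6 were lower and 1 higher, but 1 was called lower and 0 higher with BeadChip as a term. Crebbp, which encodes the acetyltransferase CBP, read 5.66, 5.20, 4.64 and 4.44 on the 1 mM arrays, of which 2 detected it, and 5.77, 5.80, 5.88, 5.49 and 5.83 on the PBS arrays. The 1 mM arrays were spread, with replicate 1 inside the PBS range, and the change was −0.77 ± 0.19 log2 units (SE; adjusted p = 0.0083), or −0.09 with BeadChip as a term (adjusted p = 0.874). Ep300, its close relative p300, was 9.77 ± 0.20 at 1 mM and 9.76 ± 0.13 with PBS (SD), a difference of 0.01 ± 0.10 log2 units (SE; adjusted p = 0.967). Deacetylases and sirtuins had 3 of 16 higher and 1 lower, beside 11.1% and 8.49% over all genes. Their median of 0.11 turned to −0.06 with all-probe median scaling, and their calls were lost with BeadChip as a term. Sirt4, a mitochondrial sirtuin, rose by 0.58 ± 0.12 log2 units (SE; adjusted p = 0.00264), which did not pass with BeadChip as a term (0.24, adjusted p = 0.462) or with all-probe median scaling (0.0614). Hdac1 had no tested probe.

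Inflammatory genes moved in both directions. Of 19 measured acute phase and chemokine genes 7 were higher and 4 lower, and 3 were called, all higher, with BeadChip as a term. Lcn2, a siderophore-binding acute phase protein, read 9.46, 9.62, 9.68 and 9.67 on the 1 mM arrays and 8.24, 8.14, 8.56, 8.32 and 8.11 on the PBS arrays. The groups were far apart, with a rise of 1.33 ± 0.11 log2 units (SE; adjusted p = 7.73e-08). Saa3, an acute phase apolipoprotein, read 9.31, 9.69, 9.63 and 9.92 at 1 mM and 8.45, 8.32, 8.45, 8.62 and 8.85 with PBS, a rise without overlap of 1.10 ± 0.13 log2 units (SE; adjusted p = 6.93e-06). Orm1 (0.75 ± 0.12), another acute phase protein, and the chemokine Ccl7 (0.69 ± 0.11) rose, Ccl7 not with BeadChip as a term (0.52, adjusted p = 0.0709). Cxcl10, an interferon-inducible chemokine, read 5.18, 5.15, 4.51 and 4.95 at 1 mM, detected on 3 of 4 arrays, and 5.89, 6.14, 5.84, 5.71 and 5.64 with PBS. It was lower on every 1 mM array, a change of −0.90 ± 0.14 log2 units (SE; adjusted p = 0.000175). Csf1, the macrophage growth factor, also was lower (−0.52 ± 0.11), though not with BeadChip as a term (−0.14, adjusted p = 0.635).

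NF-kB genes had 1 of 18 higher and 1 lower, beside 11.1% higher and 8.49% lower over all genes. The lower gene, Nfkb2, which encodes the p100 precursor, changed by −0.66 ± 0.11 log2 units (SE; adjusted p = 0.000374). Interferon-stimulated genes had 4 of 20 higher, or 3 with BeadChip as a term, and 0 lower. The share higher was 20%, beside 11.1% over all genes, and 1 of the 20 was detected on none of the 9 arrays. Usp18, which removes ISG15 from proteins, was detected on all 4 arrays at 1 mM and on no PBS array, at least 1.37-fold higher (adjusted p = 3.13e-05), while another of its probes gave −0.17. Among immediate early genes 2 of 17 were higher and 2 lower, near the shares over all genes (11.1% and 8.49%), and with BeadChip as a term 1 was higher and 0 lower. Egr1, a growth factor-induced transcription factor, read 10.67, 11.13, 11.07 and 10.84 on the 1 mM arrays and 9.83, 9.71, 9.88, 9.90 and 9.69 on the PBS arrays. All 1 mM arrays were higher, a rise of 1.12 ± 0.11 log2 units (SE; adjusted p = 1.26e-06). Wnt pathway genes had 3 of 19 higher and 3 lower, with the ligand Wnt7a lower as above, and matrix, laminin and integrin genes had 4 of 27 higher and 4 lower, beside 11.1% and 8.49% over all genes. The fit with BeadChip called 2 higher and 1 lower in the Wnt list and 1 higher and 1 lower in the matrix list. In the matrix list Pcolce2, which enhances procollagen processing, changed by −0.88 ± 0.11 log2 units (SE; adjusted p = 2.48e-05), Itgb1 by −0.56 ± 0.09 and the laminin Lama5 by 0.55 ± 0.09 log2 units (SE; adjusted p = 0.000337). Itgb1 did not pass with BeadChip as a term (−0.50, adjusted p = 0.0671), nor Lama5 with all-probe median scaling (0.0627). Lysosomal and autophagy genes had 5 of 29 higher (17.2%, beside 11.1% over all genes) and 0 lower. Their median of 0.08 turned to −0.07 with all-probe median scaling. The protease Ctsh rose by 0.89 ± 0.09 log2 units (SE; adjusted p = 1.28e-06).

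The genes called at 1 mM were then followed to the upper end of the dose range through 5 mM against 2 mM, which shares no array with 1 mM against PBS. Over all genes that comparison called 18.9% higher and 14.6% lower. The 5 mM arrays and 2 mM replicates 4 and 5 sat on BeadChip 3, and 2 mM replicates 1 to 3 on BeadChip 2. Values given here for this step come from the fit without BeadChip as a term. Of the 1175 genes higher at 1 mM, 617 were higher again (52.5%), 53 lower (4.51%) and 505 not called. Of the 900 lower at 1 mM, 412 were lower again (45.8%), 57 higher (6.33%) and 431 not called. Among the 8530 genes not called at 1 mM, 15.6% were higher and 12.7% lower. The step between, 2 mM against 1 mM, shares the 1 mM arrays; it called 4.26% of genes higher and 1.69% lower.

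Gsta4 was higher again, with 10.41, 10.62, 10.23 and 10.40 at 5 mM and 9.19, 9.19, 9.15, 9.17 and 9.05 at 2 mM, a difference of 1.27 for 5 mM over 2 mM (adjusted p = 1.52e-09). Hpx read 12.97, 13.10, 13.08 and 12.69 at 5 mM and 12.94, 13.06, 13.07, 13.05 and 13.01 at 2 mM, a difference of −0.07 (adjusted p = 0.637). Its 5 mM and 2 mM arrays overlapped. For the lists, 17 of 20 glutathione S-transferases were higher and 1 lower at 5 mM over 2 mM, and 36 of 37 replication genes were lower, with a median of −1.45. Mitotic genes had 26 of 28 lower, with a median of −2.18, and ribosome biogenesis had 25 of 33 lower. Cholesterol synthesis had 2 of 14 higher and 4 lower at that step, with a median of −0.03. Pdk4, not called at 1 mM, was 2.06 higher at 5 mM over 2 mM (adjusted p = 7.97e-11).

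Some genes turned back. Lcn2 read 5.78, 5.91, 5.90 and 6.27 at 5 mM and 9.67, 9.75, 9.78, 9.49 and 9.63 at 2 mM, a difference of −3.70 (adjusted p = 3.53e-15). Its 5 mM arrays lay below the PBS arrays too. Saa3 read 5.59, 5.62, 5.39 and 5.30 at 5 mM and 9.13, 9.50, 9.31, 9.37 and 9.57 at 2 mM, a difference of −3.90 (adjusted p = 7.28e-15). The acute phase and chemokine list had 2 of 19 higher and 11 lower at 5 mM over 2 mM. Trib3, lower at 1 mM, read 8.85, 9.03, 9.16 and 9.09 at 5 mM and 7.92, 8.05, 8.02, 7.75 and 7.50 at 2 mM, a difference of 1.18 (adjusted p = 9.31e-08), and the integrated stress response list had 11 of 19 higher and 1 lower at that step. Atf5, of the same programme, was −0.30 for 1 mM over PBS, without a call with BeadChip as a term (−0.32, adjusted p = 0.146), and 1.30 for 5 mM over 2 mM. Egr1 was −0.61 for 5 mM over 2 mM (adjusted p = 0.000307).

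**Figure D4:**
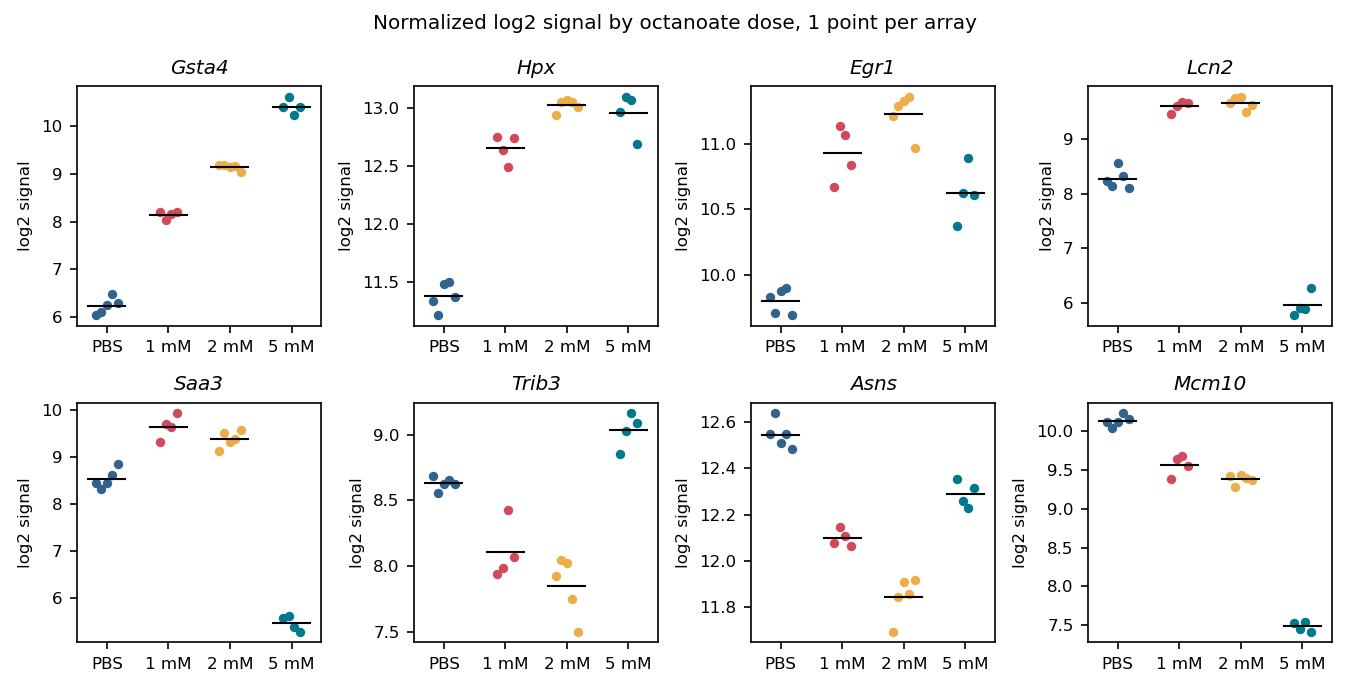
Normalized log2 signal (vertical axes, scaled per gene and not starting at 0) by dose for 8 genes in PBS, 1 mM, 2 mM and 5 mM octanoate, with 1 point per array and lines at group means. Gsta4 means are higher at each dose in turn, Mcm10 is lower at 1 mM and at 5 mM against 2 mM, Lcn2 and Saa3 are higher at 1 mM and far lower at 5 mM, and Trib3 and Asns are lower at 1 mM and higher at 5 mM than at 2 mM.

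**Figure D5:**
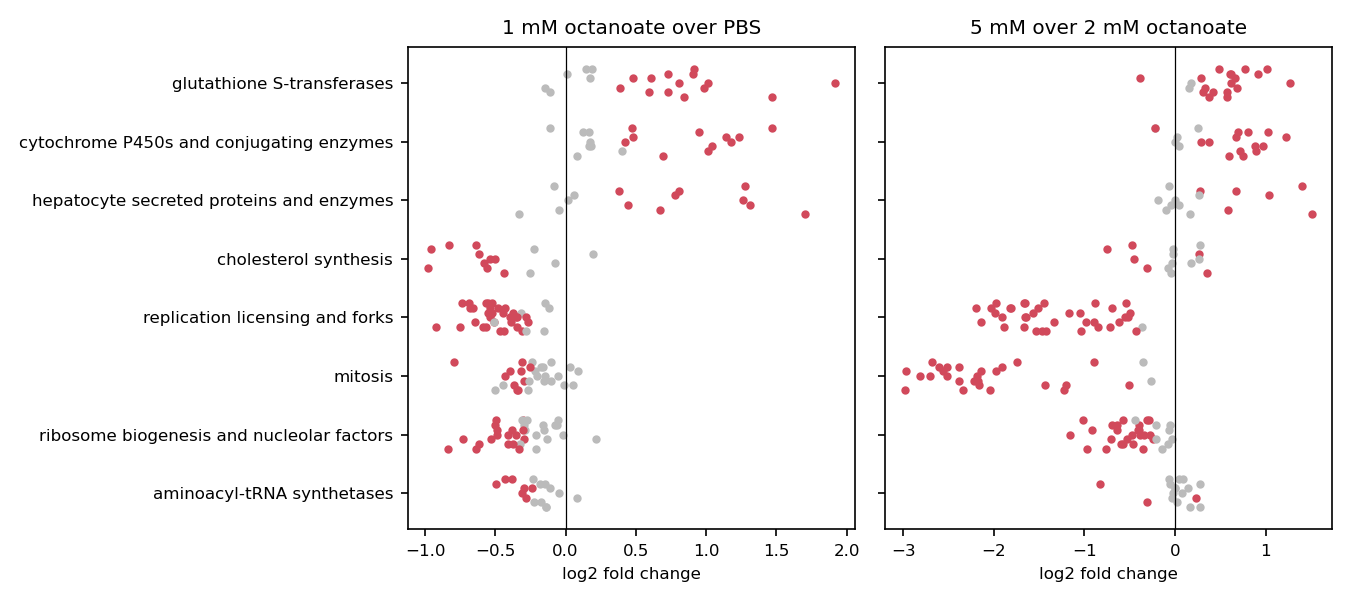
Log2 fold change of each measured member of 8 gene lists for 1 mM octanoate over PBS (left) and for 5 mM over 2 mM (right, on a wider scale), with called genes in red and others in grey and vertical offsets only to separate points. Replication genes lie left of 0 in both panels, mitotic genes move far left in the right panel, with medians of −0.25 at 1 mM and −2.18 at 5 mM over 2 mM, and cholesterol genes lie left mainly at 1 mM.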

How the data were processed

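RNA of 18 AML12 samples was measured on 3 Illumina BeadChips. The authors deposited a linear bead intensity per probe, not normalized between arrays, with a detection p-value against the negative control beads, per the file headers. They also deposited processed log2-like values, for which the submitters' processing notes name lumi with no version. Those values had medians of 7.35 or 7.36 on every array and correlated at 0.989 to 0.997 with log2 intensity over 45281 probes, so scale and direction are known from the data; their normalization is not given in sources used here.

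The neqc function of limma 3.58.1 (R 4.3.3) corrected the intensities for background (offset 16, controls inferred from detection p-values), quantile-normalized them and put them on the log2 scale. Probes with a detection p-value under 0.05 on 4 or more of the 18 arrays, 20536 of 45281 (45.4%), entered 1 limma fit over all 4 groups, with 14 residual degrees of freedom, a median residual SD of 0.175 and a median SE of 0.114 log2 units for 1 mM against PBS. The adjustment was Benjamini-Hochberg over all tested probes and the threshold 0.05. The number of arrays limits the precision.

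The platform annotation gave 1 symbol to 34885 probes, several to 18 and none to 10378. For 34807 probes the symbol was looked up by Entrez ID, whether or not it differed from the annotation. A gene was read from its detected probe with the highest mean, 10605 genes in all. A probe detected on no array of a group gave a bound, "at least N-fold", set by the lowest signal among detected probes on each array.

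The 50 gene lists hold 1152 genes, of which 866 were tested, 198 had probes without enough detection and 88 had no named probe. Members and lists were chosen with earlier results of these data known, and lists got no test. A gene can be in several lists, as Aacs, Crat, Acot1 and Acaa1b are, and is then counted in each. Genes named are the 15 largest rises and falls with non-overlapping groups, up to 2 called members of each list by adjusted p, a fixed set that includes Pdk4, Acadm, Acly and Ep300, and genes opposite at 5 mM against 2 mM; list members given with a value alone, 38 of the called ones among them, were chosen after their values were seen. Equal replicate numbers do not pair these samples: their deviations correlated at −0.0378, 0.0283, 0.0442 and 0.0446. No 2 arrays held identical values. Alternatives changed the BeadChip term, normalization, filter, probe choice, arrays and source of values; scaling to the median of all probes was chosen after seeing the data.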

Additional observations from a re-analysis of the deposited data

Results flagged for a closer look

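In 15 of 328 groups of 4 or 5 arrays tested (4.57%), 1 array stood apart from the others of its group by Dixon's gap test, and chance alone gives about 1 in 20 such groups. All values are normalized log2 signals.

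Among arrays at 1 mM octanoate, replicate 4 read 9.37 for Slc25a20, where the others read 8.9 to 8.95, and 10.15 for Ttr, where the others read 9.97 to 9.99. The same replicate read 10.1 for Insig2, with the others at 10 to 10.02, and 5.93 for Igfbp3, with the others at 6.09 to 6.11. Replicate 1 read 9.84 for Fas, above 9.65 to 9.67 on the others, and 10.56 for Wnt7b, above 10.29 to 10.33. Replicate 2 read 9.72 for Tcof1 against 9.55 to 9.58 on the others. Replicate 3 read 5.58 for S100a7a against 4.91 to 5.01 on the others.

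Among PBS arrays, replicate 3 read 8.27 for Acaa2, below 8.49 to 8.56 on the others, and 8.03 for Insig1, below 8.45 to 8.57. It also read 6.69 for Serpina1d, below 7 to 7.12, and 11.78 for Psmd7, above 11.6 to 11.64. Replicate 4 read 5.49 for Crebbp, below 5.77 to 5.88, and 6.4 for Fcgrt, below 6.55 to 6.59. For Tcof1 it read 10.5, above 10.42 to 10.44.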

How the results depend on the processing

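All PBS arrays and 1 mM replicate 1 share a BeadChip, and the other 1 mM arrays lie on the next, so outside that chip BeadChip and dose cannot be told apart. Of 155 called genes examined singly, 77 were called under every alternative run and 100 under all but the BeadChip term, which ended 58 calls; 0 of them turned direction. With BeadChip as a term 1295 probes were called, 763 higher and 532 lower. Of genes higher at 1 mM in that fit, 252 were higher again and 19 lower at 5 mM against 2 mM; of the lower, 134 were lower again and 16 higher. As a random block BeadChip had a correlation of 0.035, and 3281 probes were called in the same direction as without it. The fit with the replicate number as a block called 3464 probes, 1863 higher and 1601 lower, and gave −0.012 for Ep300.

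Leaving out 1 array at a time gave 2756 (without 1 mM replicate 4) to 3481 probes called (without PBS replicate 5), 1507 to 1879 higher and 1249 to 1602 lower. Over these fits 536 to 598 genes were higher at both steps, 42 to 54 higher then lower, 337 to 404 lower at both and 42 to 60 lower then higher. Without 1 mM replicates 1 and 4 and 2 mM replicate 5, 2084 probes were called, 1199 higher and 885 lower, with 220 genes lower at both steps and 34 lower then higher. Of genes the report names, Bub1b (adjusted p = 0.181), Plin2 (0.147), Mcm3 (0.11), Chac1 (0.103), Cdc20 (0.0983), Pmvk (0.0744), Atf5 (0.0633), Hspa4 (0.0598) and Cdc6 (0.0503) lost their calls there. The count of genes higher then lower became 89 with median scaling, 88 with no background correction and 84 in the authors' deposited values, and that of genes lower then higher became 87 with the mean of probes.

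All-probe median scaling called 498 probes higher and 2032 lower. Of its calls 19.7% were higher, against 53.1% with quantile normalization and 50% with scaling to the median of tested probes. All-probe scaling left 216 genes higher at both steps, 13 higher then lower, 261 lower at both and 119 lower then higher. List medians turned to −0.055 for triglyceride and droplet genes, −0.14 for glycolysis, −0.035 for NRF2 targets, −0.13 for cytosolic ribosomal proteins, −0.073 for autophagy and lysosome, −0.0015 for p53 targets, −0.058 for deacetylases and sirtuins and −0.10 for immediate early genes. Glycolysis also turned to −0.079 with BeadChip as a term, −0.0127 with median scaling and −0.013 with the mean of probes, and ran from −0.0135 (without PBS replicate 4) to 0.055 (without PBS replicate 5) when 1 array was left out, and cytosolic ribosomal proteins to −0.0026 with median scaling.

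Among genes without a call, Ep300 turned to −0.056 with median scaling, −0.069 with the mean of probes and −0.19 with all-probe median scaling, and ran from −0.053 (without 1 mM replicate 1) to 0.11 (without 1 mM replicate 4) when 1 array was left out. Afp turned to 0.080 with BeadChip as a term, 0.042 with median scaling and 0.0085 without PBS replicate 1. Cdkn1a turned to 0.094 with the mean of probes and 0.017 without the 3 arrays, and ran from −0.11 (without 1 mM replicate 2) to 0.019 (without 1 mM replicate 1). Acss2 turned to −0.10 without the 3 arrays and −0.00198 with all-probe median scaling and Acly to 0.0049 without the 3 arrays. The cause of these turns was not tested. The endothelial list had no tested member with a stricter detection filter. Genes near background, such as Crebbp, Fasn and Il24, are limited by signal over background.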

Other observations

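Ppbp and Igfbp3 were called in opposite directions at the low and the high end of the dose range. Prune2 and Cacna1h, described above among the largest rises, kept their direction. Ppbp, a platelet chemokine, differed by 0.52 log2 units for 1 mM octanoate over PBS (limma adjusted p = 0.00191) and by −1.88 for 5 mM over 2 mM (2.76e-11). Its call at 1 mM was lost with BeadChip as a term (adjusted p = 0.0825) and with all-probe median scaling (0.115). Igfbp3, a binding protein of insulin-like growth factors, differed by −0.39 for 1 mM over PBS (adjusted p = 0.0124) and by 1.18 for 5 mM over 2 mM (2.32e-08), and its call at 1 mM was lost with BeadChip as a term (0.271) and without the 3 arrays named above (0.0955). Prune2, among the largest rises at 1 mM, was higher again by 1.20 for 5 mM over 2 mM (adjusted p = 8.16e-08), and Cacna1h by 0.86 (9.94e-06).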
